A study of Mus musculus with 16 samples.

Results

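The immediate early and stress response genes Fos, Fosb, Jun, Junb, Egr1, Atf3, Ier2, Ier3, Dusp1 and Zfp36 were followed across 8 sorted populations of differentiating mouse embryonic stem cells. They were taken by symbol: each probe set assigned to 1 of these symbols and to no other gene was used. All 10 genes were found, with 11 probe sets among the 45037 tested (2 for Jun and 1 for each of the other 9), out of 18193 genes that had a probe set of their own. None was removed by a filter on low signals. Stem cells of the CCE line formed embryoid bodies, clusters in which the stem cells differentiate, after leukaemia inhibitory factor was withdrawn. The populations were VEGFR2 positive and VEGFR2 negative cells on day 2.5, CD41 positive and CD41 negative cells on day 3.5, and CD144 positive and CD144 negative cells on day 3.5 and again on day 6.5. VEGFR2 is a receptor for vascular endothelial growth factor, CD41 marks early blood cells, and CD144 is VE-cadherin of endothelial junctions. Each population had 2 arrays from separately conducted differentiations, 16 arrays in all. No gene was altered and no agent distinguished the groups. All populations came from the same line and went through dissociation, fixation in ethanol and acetic acid, antibody staining and flow sorting. The negative cells are a mixture of whatever lacked the marker, and the positive cells of the later days were described as subsets of VEGFR2 positive cells.

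Immediate early genes are transcribed within minutes of a growth factor, serum or stress signal, because the factors that switch them on are already in the cell. Signals through the ERK, p38 and JNK kinases reach ternary complex factors with serum response factor, and CREB/ATF proteins, at their promoters. Fos and Jun proteins pair as the transcription factor AP-1, while Dusp1 and Zfp36 act largely as brakes on the same signals. Enzymatic or mechanical dissociation of tissue also induces many of these genes, so their level is commonly read as a record of handling. The question put to the data was how far the 10 genes differed between populations that went through the same described steps, and how far between the 2 arrays of a population.

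Values are Affymetrix MAS5 signals, which the authors scaled so that the trimmed mean of each array was 500, and differences are given on the log2(signal + 6) scale. Adjusted p-values are from limma fitted to all probe sets, and a gene is called where its adjusted p is under the 0.05 threshold. With 2 arrays per population the spread was pooled over the 8 populations. In bulk samples, fewer cells that express a gene and less RNA per cell cannot be told apart. The sorted antigens were higher in the cells sorted for them: Kdr, which encodes VEGFR2, by 1.49 on the log2 scale on day 2.5, Itga2b, which encodes CD41, by 4.87 in its own sort, and Cdh5, which encodes CD144, by 5.85 on day 3.5 and 6.05 on day 6.5. None was particular to its own sort. Kdr was higher by 4.93 in the CD41 sort and by 2.16 and 3.66 in the CD144 sorts of day 3.5 and 6.5. Itga2b was higher by 1.83 in the VEGFR2 sort and by 3.08 and 2.77 in the CD144 sorts. Cdh5 was higher by 2.74 in the VEGFR2 sort and by 5.38 in the CD41 sort. The positive arrays differed from the negative arrays in technical measures. Their hybridisation controls had geometric means of 8122 to 13755 in the 8 positive arrays, against 2490 to 4309 in the 8 negative arrays, and the ranks of all probe sets correlated at 0.872 to 0.895 between the 2 arrays of a positive population, against 0.945 to 0.955 between those of a negative population. The 3′ to 5′ ratio of Gapdh, a sign of RNA integrity, was 0.883 to 1.06 in positive arrays and 0.816 to 0.969 in negative arrays. That of beta-actin was 1.80 to 2.83 in positive arrays and 1.36 to 3.28 in negative arrays. It was highest in replicate 2 of the CD144 negative cells of day 6.5. The hybridisation controls did not overlap between positive and negative arrays. In this design such a technical difference cannot be told apart from a difference between positive and negative cells. The part of these measures in the results below was not tested.

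Fos was called higher in positive cells in 3 of the 4 sorts, and most in the CD144 sort of day 6.5. Fos (probe set 1423100_at) encodes the founding partner of AP-1. Its signals were 1660 and 5865 in VEGFR2 positive cells, 787 and 3708 in CD41 positive cells, 8389 and 7316 in the CD144 positive cells of day 3.5, and 11413 and 10623 in CD144 positive cells of day 6.5. In the negative cells they were 823 and 542 in the VEGFR2 sort, 783 and 714 in the CD41 sort, 2526 and 2393 in the CD144 sort of day 3.5, and 1626 and 1478 in the CD144 sort of day 6.5. The 2 positive arrays lay above the 2 negative arrays in each sort, and in the CD41 sort the margin was that of 787 in the lower positive array over 783 in the higher negative array. Fos was 4.64-fold higher in VEGFR2 positive than VEGFR2 negative cells (log2 difference 2.21, SE 0.52, limma adjusted p = 0.00488), 3.18-fold higher in the CD144 sort of day 3.5 (adjusted p = 0.0325) and 7.08-fold higher in that of day 6.5 (log2 difference 2.82, adjusted p = 0.000959). In the CD41 sort the difference of 1.19 had a 95% confidence interval of 0.08 to 2.30 and did not pass (adjusted p = 0.104).

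Fosb (1422134_at), a close relative of Fos that also pairs with Jun proteins, was called higher in 3 sorts. Its signals were low, with 55.5 and 195 in VEGFR2 positive cells, 157 and 222 in CD41 positive cells, 205 and 394 in the CD144 positive cells of day 3.5, and 530 and 566 in CD144 positive cells of day 6.5. All 8 negative arrays read between 16.8 and 58.5, under the median of all signals of 85.8. Only the first VEGFR2 positive array overlapped them. The difference was 2.72 on the log2 scale in the CD41 sort (limma adjusted p = 0.00191), 2.54 in the CD144 sort of day 3.5 (adjusted p = 0.0052) and 3.68, or 12.8-fold, in that of day 6.5 (SE 0.59, adjusted p = 0.000263), where an offset of 32 in place of 6 gave 3.07, so the fold of this dim gene is uncertain. In the VEGFR2 sort it was 1.62 (adjusted p = 0.0546).

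Jun, the AP-1 subunit that JNK phosphorylates, was called higher in positive cells in all 4 sorts. Its first probe set (1417409_at, the brighter one) read 2265 and 3694 in VEGFR2 positive cells, 2422 and 5189 in CD41 positive cells, 5558 and 5989 in the CD144 positive cells of day 3.5, and 8156 and 7675 in CD144 positive cells of day 6.5. In negative cells it read 1570 and 1499 in the VEGFR2 sort, 627 and 894 in the CD41 sort, 2726 and 1988 in the CD144 sort of day 3.5, and 2083 and 2140 in that of day 6.5. No positive array fell below a negative array of its own sort. The log2 difference was 0.91 in the VEGFR2 sort (limma adjusted p = 0.0237), 2.23 in the CD41 sort (adjusted p = 1.11e-05), 1.31 in the CD144 sort of day 3.5 (adjusted p = 0.00286) and 1.90 in that of day 6.5 (adjusted p = 0.000124). The second Jun probe set (1448694_at) was called higher in the same 4 comparisons, by 1.60, 2.44, 1.62 and 1.20 in the same order, and over all 14 pairwise comparisons the 2 probe sets had the same call in 10.

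Junb (1415899_at), a Jun relative that is a weaker activator, was called higher in 3 sorts. It read 338 and 672 in VEGFR2 positive cells, 353 and 515 in CD41 positive cells, 297 and 421 in the CD144 positive cells of day 3.5, and 889 and 731 in CD144 positive cells of day 6.5. The negative arrays read 229 and 259 in the VEGFR2 sort, 175 and 170 in the CD41 sort, 217 and 239 in the CD144 sort of day 3.5, and 257 and 301 in that of day 6.5. Positive and negative arrays did not overlap within any sort, but on day 3.5 the CD144 difference of 0.62 did not pass (limma adjusted p = 0.154). The differences were 0.95 in the VEGFR2 sort (adjusted p = 0.024), 1.28 in the CD41 sort (adjusted p = 0.00293) and 1.52 in the CD144 sort of day 6.5 (adjusted p = 0.00129).

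Atf3, a CREB/ATF family factor that stress signals induce and that can pair with Jun, had its highest mean in VEGFR2 positive cells. Atf3 (1449363_at) read 995 and 1217 there, 194 and 387 in CD41 positive cells, 583 and 687 in the CD144 positive cells of day 3.5, and 1118 and 776 in those of day 6.5. The negative arrays were flat, between 164 and 277. Positive arrays were above the negative arrays of their sort throughout, by a small margin in the CD41 sort. The difference was 2.03 in the VEGFR2 sort (SE 0.28, limma adjusted p = 5.68e-05), 1.42 in the CD144 sort of day 3.5 (adjusted p = 0.00161) and 1.96 in that of day 6.5 (adjusted p = 0.000101). It was 0.72 in the CD41 sort (adjusted p = 0.0661). CD41 positive cells were lower in Atf3 than the VEGFR2 positive cells of the day before, by 1.98 (adjusted p = 0.000175).

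The promoters of these AP-1 genes and of the feedback genes Dusp1 and Zfp36, described next, are shown because the genes fell into different patterns across the sorts. RefSeq promoter sequences on GRCm38.p6 were used for 8 of the 10 genes, since no usable entry was at hand for Egr1 and Ier2. Entries on a chromosome set aside as unusable were left out for the 10 genes but kept in the shares over all promoters. The 250 bases before the gene start are given 5′ to 3′ on the gene's strand for 7 of them, since Ier3 held none of the motifs searched. Fos lies at chr12:85473640-85473889 (+), Fosb at chr7:19310046-19310295 (-), Jun at chr4:95052223-95052472 (-), Junb at chr8:84978749-84978998 (-), Atf3 at chr1:191183334-191183583 (-), Dusp1 at chr17:26508473-26508722 (-) and Zfp36 at chr7:28379229-28379478 (-). Capitals mark TGACG (the core of a CREB/ATF site), TGACGTCA (the whole site, which contains TGACG on both strands), TGACATCA (an AP-1-like site), TGANTCA (an AP-1 site), TATAAA and the CArG box that serum response factor binds, each searched on both strands.
Fos: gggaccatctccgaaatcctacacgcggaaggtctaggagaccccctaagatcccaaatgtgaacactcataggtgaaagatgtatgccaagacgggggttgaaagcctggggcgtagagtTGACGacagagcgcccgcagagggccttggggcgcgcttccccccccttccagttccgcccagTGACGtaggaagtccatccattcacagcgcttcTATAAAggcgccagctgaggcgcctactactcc
Fosb: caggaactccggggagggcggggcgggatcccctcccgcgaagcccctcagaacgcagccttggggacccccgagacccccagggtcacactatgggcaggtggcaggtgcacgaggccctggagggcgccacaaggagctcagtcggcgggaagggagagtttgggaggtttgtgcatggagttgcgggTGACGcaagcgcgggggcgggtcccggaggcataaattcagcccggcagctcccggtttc
Jun: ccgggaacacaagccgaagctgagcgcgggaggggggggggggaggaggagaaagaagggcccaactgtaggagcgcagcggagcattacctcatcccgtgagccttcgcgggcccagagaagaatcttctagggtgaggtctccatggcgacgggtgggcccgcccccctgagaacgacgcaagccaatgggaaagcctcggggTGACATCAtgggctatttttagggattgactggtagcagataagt
Junb: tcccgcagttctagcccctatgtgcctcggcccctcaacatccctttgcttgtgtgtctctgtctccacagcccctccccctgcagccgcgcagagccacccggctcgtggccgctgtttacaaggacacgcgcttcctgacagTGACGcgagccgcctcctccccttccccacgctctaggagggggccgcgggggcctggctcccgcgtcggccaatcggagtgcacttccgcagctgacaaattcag
Atf3: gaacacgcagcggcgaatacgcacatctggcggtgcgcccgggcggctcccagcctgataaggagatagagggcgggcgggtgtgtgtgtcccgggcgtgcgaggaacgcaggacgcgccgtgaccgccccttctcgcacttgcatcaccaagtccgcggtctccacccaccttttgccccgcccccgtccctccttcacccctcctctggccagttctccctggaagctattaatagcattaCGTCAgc
Dusp1: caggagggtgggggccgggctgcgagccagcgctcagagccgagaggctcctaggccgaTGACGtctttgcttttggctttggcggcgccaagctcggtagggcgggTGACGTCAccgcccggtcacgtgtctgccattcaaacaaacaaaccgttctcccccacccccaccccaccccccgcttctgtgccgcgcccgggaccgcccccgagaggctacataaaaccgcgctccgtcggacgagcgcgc
Zfp36: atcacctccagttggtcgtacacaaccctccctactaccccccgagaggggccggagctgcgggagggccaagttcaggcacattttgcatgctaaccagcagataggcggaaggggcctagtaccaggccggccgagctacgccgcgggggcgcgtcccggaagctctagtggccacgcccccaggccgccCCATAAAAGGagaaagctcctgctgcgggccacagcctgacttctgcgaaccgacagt
TGACG stood in 5 of the 8 promoters (Fos, Fosb, Junb, Atf3 and Dusp1), against 17.8% of 32851 mouse promoters of the same length. In Fos it began 129 and 66 bases before the gene start, in Fosb 60 bases and in Junb 106 bases, and in Atf3 the reverse-strand match began 7 bases before it. Dusp1 held the whole TGACGTCA, 143 bases before the start, which 1.55% of promoters hold, and a further TGACG at 191 bases. Jun held TGACATCA at 45 bases (2.93% of promoters), Fos held TATAAA at 33 bases (12.4%) and Zfp36 held a CArG box at 58 bases (1.47%). TGANTCA was in none of the 8 windows and in 6.75% of all promoters. These are matches of letters and not measured sites. Sequence further upstream than 250 bases was not searched, nor were Egr1 and Ier2, so a motif missing here may lie outside the window.

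**Figure D1:**
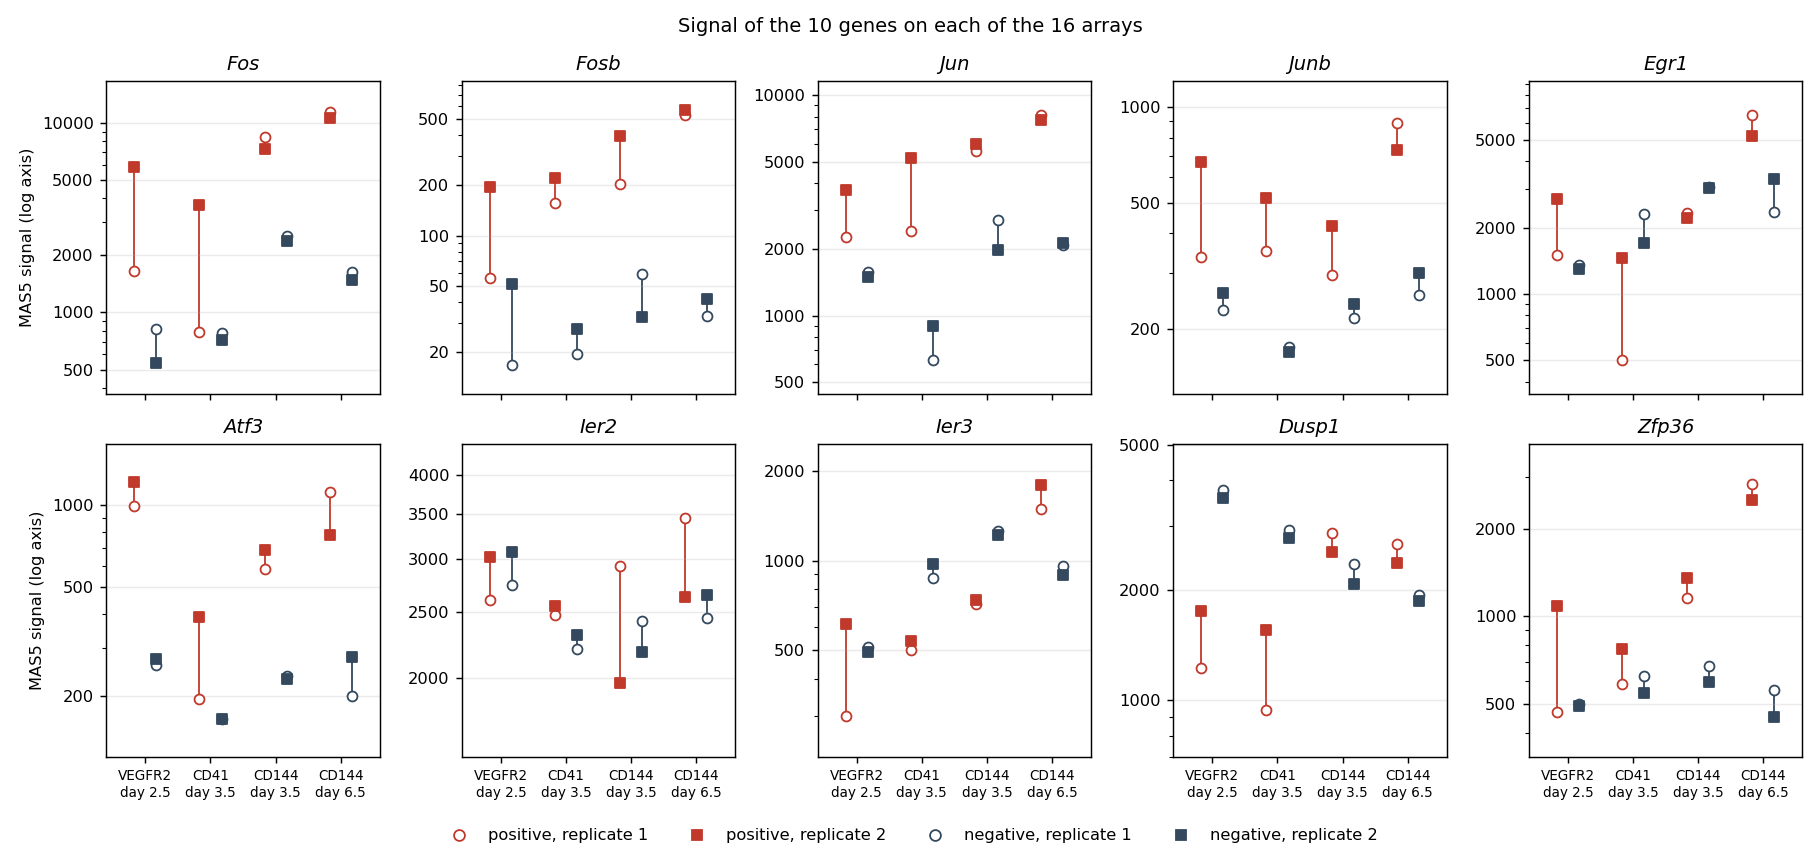
MAS5 signal (log axis, 1 panel per gene with its own range) of the 10 genes in the 4 sorts, with positive cells on the left of each pair in red and negative cells on the right in dark blue, open circles for replicate 1 and squares for replicate 2, joined by a line. Fos, Fosb, Jun, Junb and Atf3 lie higher in positive cells of each sort, and Dusp1 lies lower in VEGFR2 and CD41 positive cells. The widest folds between 2 arrays are those of Fos in CD41 and VEGFR2 positive cells. Fosb is also wide in VEGFR2 positive and VEGFR2 negative cells.

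Dusp1 ran the other way from the AP-1 genes in the first sorts. Dusp1 encodes a nuclear phosphatase that switches off p38, JNK and ERK. Dusp1 (1448830_at) read 1225 and 1750 in VEGFR2 positive cells, 937 and 1553 in CD41 positive cells, 2869 and 2551 in the CD144 positive cells of day 3.5, and 2671 and 2370 in those of day 6.5. The negative arrays read 3756 and 3584 in the VEGFR2 sort, 2927 and 2790 in the CD41 sort, 2366 and 2078 in the CD144 sort of day 3.5, and 1944 and 1875 in that of day 6.5. In VEGFR2 and CD41 positive cells both arrays lay below both negative arrays, and in the 2 CD144 sorts both lay above them. The difference was -1.32 in the VEGFR2 sort (SE 0.20, limma adjusted p = 0.000116) and -1.24 in the CD41 sort (adjusted p = 0.000135), whereas it was 0.29 on day 3.5 and 0.40 on day 6.5 in the CD144 sorts, neither past the threshold (adjusted p = 0.352 and 0.187, 95% confidence intervals -0.13 to 0.71 and -0.02 to 0.82). The difference between sorts was itself tested: relative to the VEGFR2 sort, that of the CD144 sort was 1.61 higher on day 3.5 (adjusted p = 0.00183) and 1.72 higher on day 6.5 (adjusted p = 0.00139). Of all probe sets, 5.3% passed that test on day 3.5 (3.1% higher, 2.2% lower) and 4.84% on day 6.5 (2.8% higher, 2.05% lower).

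Zfp36 was called higher in the CD144 sorts and not in the others. It encodes tristetraprolin, which binds AU-rich elements and promotes decay of cytokine and immediate early mRNAs. Zfp36 (1452519_a_at) read 469 and 1083 in VEGFR2 positive cells, 586 and 772 in CD41 positive cells, 1157 and 1360 in the CD144 positive cells of day 3.5, and 2847 and 2505 in those of day 6.5, while the 8 negative arrays stayed between 452 and 677. The day 6.5 arrays stood clear of all others. The difference was 2.39, or 5.25-fold, on day 6.5 (SE 0.27, limma adjusted p = 1.04e-05) and 0.98 in the CD144 sort of day 3.5 (adjusted p = 0.0169), against 0.51 in the VEGFR2 sort (adjusted p = 0.191) and 0.20 in the CD41 sort (adjusted p = 0.637). Relative to the VEGFR2 sort, the CD144 difference of day 6.5 was 1.88 larger (adjusted p = 0.00799) and that of day 3.5 was 0.46 larger (adjusted p = 0.616).

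Egr1, a zinc finger factor and a standard reporter of ERK activity, changed sides between sorts. Egr1 (1417065_at) read 1501 and 2708 in VEGFR2 positive cells, 502 and 1457 in CD41 positive cells, 2333 and 2211 in the CD144 positive cells of day 3.5, and 6514 and 5234 in those of day 6.5. In negative cells it read 1354 and 1295 in the VEGFR2 sort, 2316 and 1711 in the CD41 sort, 3062 and 3038 in the CD144 sort of day 3.5, and 2350 and 3316 in that of day 6.5. CD41 positive cells were lowest and CD144 positive cells of day 6.5 highest of the 8 populations. Egr1 was called lower in the CD41 sort (-1.21, SE 0.35, limma adjusted p = 0.0139) and higher in the CD144 sort of day 6.5 (1.06, adjusted p = 0.0403). It was 0.60 in the VEGFR2 sort and -0.42 in the CD144 sort of day 3.5, with adjusted p = 0.232 and 0.443. Relative to the VEGFR2 sort, the CD41 difference was -1.82 (adjusted p = 0.0425), a call that held only without VEGFR2 positive replicate 1 or CD41 positive replicate 2 among the 8 arrays left out in turn, with values of -2.58 to -1.05. Of all probe sets, 4.73% passed that test, 2.33% higher and 2.4% lower.

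Ier3, a stress-inducible regulator of cell survival, also changed sides. Ier3 (1419647_a_at) read 300 and 612 in VEGFR2 positive cells, 500 and 537 in CD41 positive cells, 713 and 734 in the CD144 positive cells of day 3.5, and 1491 and 1800 in those of day 6.5. In negative cells it read 513 and 493 in the VEGFR2 sort, 873 and 973 in the CD41 sort, 1252 and 1215 in the CD144 sort of day 3.5, and 957 and 897 in that of day 6.5. The day 6.5 positive arrays were above every negative array, and the CD41 and day 3.5 CD144 positive arrays were below those of their own sorts. It was called lower by 0.82 in the CD41 sort (limma adjusted p = 0.012) and by 0.76 in the CD144 sort of day 3.5 (adjusted p = 0.0268), and higher by 0.82 in that of day 6.5 (adjusted p = 0.0187). The VEGFR2 difference was -0.23 (adjusted p = 0.524).

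Ier2, a short-lived nuclear protein of the same early response, was called in 0 of the 14 pairwise comparisons. Ier2 (1416442_at) read 2608 and 3023 in VEGFR2 positive cells, 2473 and 2559 in CD41 positive cells, 2932 and 1960 in the CD144 positive cells of day 3.5, and 3459 and 2635 in those of day 6.5, against 2182 to 3069 in the 8 negative arrays. The 8 population means spanned 0.42 on the log2 scale, against 1.60 for Dusp1 and up to 4.24 for Fosb. The lowest limma adjusted p was 0.306, and 0 of the 14 comparisons had an unadjusted p under 0.05, the lowest being 0.0548. The 95% confidence intervals of the 4 positive against negative differences reached from -0.41 to 0.61, so that changes under about that size were not resolved.

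Counted by sort, the 10 genes had the most higher calls in the CD144 sort of day 6.5 and the most lower calls in the CD41 sort. In the VEGFR2 sort 4 were called higher (Fos, Jun, Junb and Atf3) and 1 lower (Dusp1), where 24.9% of all probe sets were called, 11.1% higher and 13.8% lower. In the CD41 sort 3 were higher (Fosb, Jun and Junb) and 3 lower (Egr1, Ier3 and Dusp1), where 29.3% were called, 13.5% higher and 15.8% lower. In the CD144 sort of day 3.5 there were 5 higher (Fos, Fosb, Jun, Atf3 and Zfp36) and 1 lower (Ier3), where 20% were called, 9.49% higher and 10.5% lower. On day 6.5 there were 8 higher (all but Ier2 and Dusp1) and 0 lower, where 19.5% were called, 9.41% higher and 10.1% lower. The median difference of the 10 genes was 0.76, 0.46, 0.80 and 1.71 in these 4 sorts in turn, beside 0.08, 0.10, 0.10 and 0.07 over all probe sets. Both positive arrays lay above both negative arrays in 6, 6, 7 and 9 of the 10 genes, where 33.8%, 33.5%, 33.3% and 31.1% of all probe sets did, and below them in 1, 3, 2 and 0, where 31.1%, 30.3%, 28.1% and 26.1% did.

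**Figure D2:**
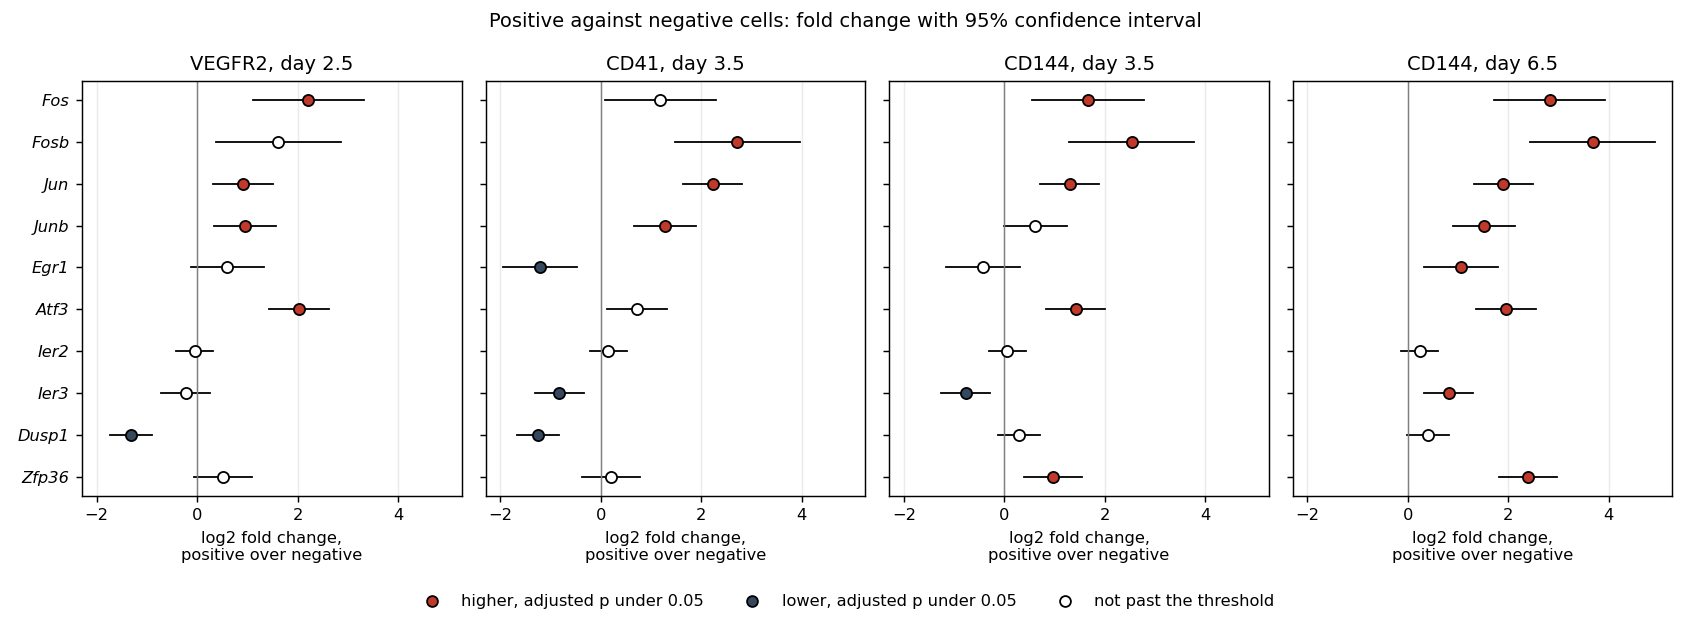
Log2 fold change of positive over negative cells (horizontal axis) for each gene (rows) in the 4 sorts (panels), with the 95% confidence interval from limma as a line; red points were called higher, blue points lower, and open points did not pass. The day 6.5 CD144 panel has 8 of 10 genes called higher, with Fosb at 3.68, and Dusp1 is at -1.32 in the VEGFR2 panel.

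In the VEGFR2 sort and the CD144 sort of day 3.5 the counts moved by over 1.5 times when single arrays were left out. In the VEGFR2 sort the calls of Fos, Jun and Junb were lost without positive replicate 2, where the Fos difference was 1.31. They were also lost without negative replicate 2, and those of Jun and Junb without negative replicate 1. Genes not called in the full fit came past the threshold in some of these fits and are not named here. In the CD41 sort Egr1 was lost without CD41 positive replicate 1, where it was -0.45, or without negative replicate 1. Ier3 was lost without positive replicate 1 or negative replicate 2. Of the 3 lower calls in that sort, only Dusp1 was kept with each array left out in turn. Here too, genes not called in the full fit came past the threshold without positive replicate 1. In the CD144 sort of day 3.5 the count was 4 without positive replicate 1, 2 without positive replicate 2, 3 without negative replicate 1 and 1 without negative replicate 2: Fos and Ier3 were lost without any 1 of the 4 arrays, Zfp36 without positive replicate 2 or either negative array, Fosb without positive or negative replicate 2, and Jun without negative replicate 2. After quantile normalization that sort had 5 higher and 0 lower, without Ier3. On day 6.5 it was 6 or 7, with Fos, Fosb, Jun, Junb, Atf3 and Zfp36 kept each time, Egr1 lost without any 1 of the 4 arrays, and Ier3 lost without positive replicate 2 or either negative array. With a robust prior on the variance and no trend, the counts of the 4 sorts were 2, 4, 3 and 6. Each p-value with 1 array in a population assumes that it varied like the rest.

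Over the 4 sorts together, the mean of the positive populations was called higher than that of the negative populations for 6 genes and lower for 1, where 47% of all probe sets were called, 23.5% higher and 23.6% lower. The differences were 2.64 for Fosb, 1.97 for Fos, 1.59 for Jun, 1.53 for Atf3, 1.09 for Junb and 1.02 for Zfp36 (limma adjusted p between 6.72e-08 and 9.04e-06), and -0.47 for Dusp1 (adjusted p = 0.000855). Egr1 came out at 0.01 (adjusted p = 0.975), from sorts of opposite sign, and Ier3 at -0.25 (adjusted p = 0.0868). None of the 10 had all 8 positive arrays above all 8 negative arrays or below them, which 4.98% and 6.16% of all probe sets did. Fosb came closest, with 55.5 as the lowest positive signal and 58.5 as the highest negative signal.

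Over time, 7 of the 10 genes were called higher in CD144 positive cells by day 6.5, and 0 were called higher in CD41 positive cells. In CD41 positive cells 3 of the 10 differences lay above 0 and did not pass. Each population was set against VEGFR2 positive cells of day 2.5, so sorting marker and day changed together. Against VEGFR2 positive cells of day 2.5, CD41 positive cells had 0 genes higher and 2 lower (Egr1 by 1.23, limma adjusted p = 0.0321, and Atf3 by 1.98), where 9.84% of probe sets were called, 5.02% higher and 4.82% lower. CD144 positive cells of day 3.5 had 2 higher, Jun by 0.99 (adjusted p = 0.0381, with 0.38 and adjusted p = 0.394 for its second probe set) and Dusp1 by 0.88 (adjusted p = 0.0108), where 7.71% were called, 4.87% higher and 2.84% lower. CD144 positive cells of day 6.5 had 7 higher and 0 lower, where 15.5% were called, 9.4% higher and 6.1% lower. The largest of these were Fosb at 2.32 (adjusted p = 0.0119), Ier3 at 1.92 (adjusted p = 2.58e-05) and Zfp36 at 1.90 (adjusted p = 0.000132), followed by Fos at 1.82, Egr1 at 1.53, Jun at 1.45 and Dusp1 at 0.78. Without VEGFR2 positive replicate 1 or CD144 positive replicate 1 this count was 3. Ier3, Zfp36 and the first Jun probe set were called without any 1 of the 4 arrays, but the second Jun probe set was at 0.58 (adjusted p = 0.128). The count of 2 for CD144 positive cells of day 3.5 was 0 without replicate 1 of either population, 1 without CD144 positive replicate 2 and 5 without VEGFR2 positive replicate 2. The count of 2 for CD41 positive cells was 1 without CD41 positive replicate 1 and 4 without replicate 2, and the Egr1 call there was also lost without VEGFR2 positive replicate 2.

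Between the 2 CD144 positive populations, day 6.5 was higher than day 3.5 for Egr1 (1.36), Junb (1.18), Ier3 (1.17) and Zfp36 (1.09), with limma adjusted p = 0.0292, 0.0255, 0.00656 and 0.0264, where 5.84% of probe sets were called, 3.2% higher and 2.64% lower. Fos was 0.49 and Fosb 0.93 (adjusted p = 0.665 and 0.411). The count was 2 without day 3.5 replicate 2, 1 without replicate 1 of either day and 0 without day 6.5 replicate 2. On day 3.5, CD144 positive cells exceeded CD41 positive cells in 5 genes, Fos by 2.19 (adjusted p = 0.0123), Egr1 by 1.40, Atf3 by 1.19, Dusp1 by 1.16 (adjusted p = 0.000925) and Zfp36 by 0.89, where 9.78% were called, 6.06% higher and 3.72% lower. This count was 1 without CD41 positive replicate 1 or CD144 positive replicate 2, leaving Dusp1, 2 without CD144 positive replicate 1 and 6 without CD41 positive replicate 2.

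Negative cells were compared over time in the same way. CD144 negative cells of day 3.5, set against VEGFR2 negative cells, were higher in Fos (1.87, limma adjusted p = 0.0385), Egr1 (1.20, adjusted p = 0.046) and Ier3 (1.28, adjusted p = 0.00186) and lower in Dusp1 (-0.73, adjusted p = 0.0334), where 7.14% of probe sets were called, 3.9% higher and 3.24% lower. With any 1 of the 4 arrays left out, 1 gene, Ier3, stayed called. CD41 negative cells were higher in Ier3 alone (0.87, adjusted p = 0.0487, lost without any 1 of the 4 arrays), where 3.46% were called, 1.57% higher and 1.89% lower. CD144 negative cells of day 6.5 were higher in Ier3 (0.87, adjusted p = 0.024) and lower in Dusp1 (-0.94, adjusted p = 0.00555), where 8.78% were called, 5.05% higher and 3.72% lower. Ier3 was lost without any 1 of the 4 arrays and Dusp1 without VEGFR2 negative replicate 1. They differed from those of day 3.5 in 0 genes by limma, where 0.719% were called (0.557% higher, 0.162% lower) and 0 of the 10 had an unadjusted p under 0.05. CD144 negative cells of day 3.5 exceeded CD41 negative cells of the same day in Jun (1.63, adjusted p = 0.00351), where 1.75% were called (1.04% higher, 0.711% lower), a call lost without replicate 1 of either. Against the day 2.5 cells of the same side, Dusp1 was thus lower by 0.73 to 0.94 in CD144 negative cells. It was higher by 0.78 to 0.88 in CD144 positive cells. The day 2.5 cells were sorted on VEGFR2 and the later cells on CD144. Day and sorting marker cannot be told apart in these comparisons.

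The 2 arrays of a population differed most in these genes among VEGFR2 and CD41 positive cells. In VEGFR2 positive cells all 10 genes were higher in replicate 2, where 49.3% of all probe sets were, and the median absolute log2 difference was 0.91, against 0.26 for the probe sets brighter than the median. In CD41 positive cells all 10 were again higher in replicate 2, where 41.8% of all probe sets were, with a median of 0.63 against 0.32. Fos differed by 1.82 in VEGFR2 positive cells and by 2.23, or 4.68-fold, between the CD41 positive arrays, more than 97.4% and 98.2% of the brighter probe sets. Egr1 in CD41 positive cells followed at 1.53, and Fosb and Zfp36 in VEGFR2 positive cells at 1.71 and 1.20. Ier2 differed by 0.21 and 0.05 in these populations.

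The other 6 populations differed less. In CD144 positive cells the median was 0.21 on day 3.5, with 6 genes higher in replicate 2, and 0.23 on day 6.5, with 2 higher, against 0.26 and 0.27 for the brighter probe sets. In the negative cells it was 0.07 to 0.18, and 1 to 6 genes were higher in replicate 2, the 1 being in CD144 negative cells of day 3.5. The negative partners of the 2 split populations had 0.07 (VEGFR2 negative cells) and 0.14 (CD41 negative cells), with 4 and 5 genes higher in replicate 2. The widest split among negative cells was that of Fosb, with 1.33 in VEGFR2 negative cells at signals of 16.8 and 51.5. For Fos the difference of 2.23 between the 2 CD41 positive arrays was larger than the 1.19 between CD41 positive and CD41 negative cells, and the 1.82 between the 2 VEGFR2 positive arrays came close to the 2.21 between VEGFR2 positive and VEGFR2 negative cells.

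**Figure D3:**
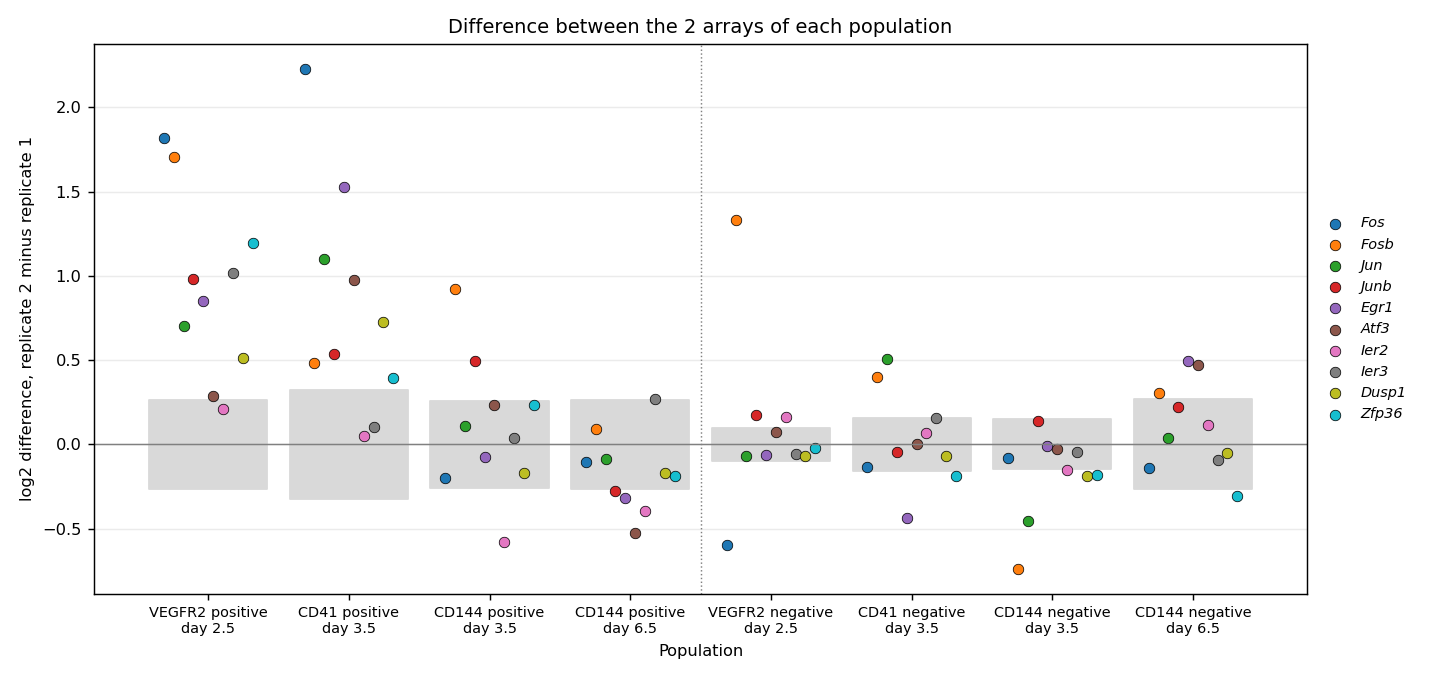
Log2 difference of replicate 2 minus replicate 1 (vertical axis) for each of the 10 genes (coloured points) in the 4 positive populations, left, and the 4 negative populations, right; the grey band reaches from minus to plus the median absolute difference of the probe sets brighter than the median. All 10 points lie above 0 in VEGFR2 and CD41 positive cells, up to 2.23 for Fos, and lie on both sides of 0 in the other 6 populations.

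Markers of several cell types were found in the population that stood highest. In CD144 positive cells of day 6.5 the summed signal of 6 endothelial markers was 17629 to 18008, against 334 to 359 in CD144 negative cells where Tie1 was near background. The sum of 5 macrophage markers was 3914 to 4787, against 937 to 1206 in CD144 negative cells, that of 8 mesenchyme and feeder fibroblast markers was 6574 to 7916, against 4698 to 4844 in negative cells, and that of 5 erythroid markers was 37816 to 47209, against 41860 to 46416 in negative cells, with 0 markers of these 4 lists, and of the 3 below, under the 25th percentile of all signals in the positive cells. The sum of 5 megakaryocyte markers was 7720 to 8478 in CD144 positive cells of day 6.5, against 494 to 621 in negative cells, that of 5 cardiac markers 7536 to 8700, against 3654 to 3667 in negative cells, and that of 5 endoderm markers 7774 to 8829, against 5046 to 6079 in negative cells. CD41 positive cells had an erythroid sum of 90251 to 106562, against 289 to 420 in CD41 negative cells, where Hbb-y and Alas2 were near background. The study's methods took feeder cells away before the embryoid bodies formed. The part of these cell types in the results was not tested.

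Wider lists of immediate early and stress genes were mixed in direction. A listed gene counted as measured only where a probe set carried the listed symbol alone. A gene annotated under another name would be missed. Cyr61 and Ctgf of the other immediate early genes were not found by this rule, nor were Mkl1, Mkl2 and Atf1 of the upstream factors. Of 37 other immediate early genes measured (39 listed), 10 were higher and 12 lower over the 4 sorts together, with a median of 0.11 beside 0.12 over all probe sets. In that comparison 23.5% of all probe sets were higher and 23.6% lower, so these counts were near the share of all probe sets. Dusp2, a phosphatase of lymphoid and myeloid cells, was higher by 3.50 (mean signal 2492 in positive and 231 in negative arrays), the growth arrest gene Gadd45g by 3.08 and Phlda1 by 2.80 (limma adjusted p between 2.24e-14 and 1.02e-13). The ERK phosphatase Dusp5 was lower by 2.68 (limma adjusted p = 1.80e-05), the kinase Plk3 by 2.27 and the Egr1 relative Egr3 by 1.58. An offset of 32 in place of 6 gave -2.10, -1.52 and -1.11 for these lower genes, so their folds are uncertain. It gave 3.33 for Dusp2, 2.98 for Gadd45g and 2.76 for Phlda1. On day 6.5 alone 13 of the 37 were higher and 4 lower, with Dusp2 at 3.50 and Egr3 at -2.68, where 9.41% of all probe sets were higher and 10.1% lower.

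Genes that ERK signalling induces, among them brakes on it, ran lower and are called ERK feedback genes here. Of 9 such genes, 8 were lower in positive cells and 1 higher over the 4 sorts, with a median of -0.97, where 23.6% of all probe sets were lower and 23.5% higher. The ERK phosphatase Dusp6 was lower by 2.01 (mean signal 1305 in positive and 4510 in negative arrays, limma adjusted p = 1.48e-10), the ETS factor Etv5 by 1.94 and the inhibitor Spred1 by 1.40, while the phosphatase Dusp4 was higher by 0.48 (adjusted p = 0.000899). In the single sorts 4, 8, 4 and 8 of the 9 were lower, from the VEGFR2 sort to the CD144 sort of day 6.5, where 13.8%, 15.8%, 10.5% and 10.1% of all probe sets were, and 1, 1, 0 and 0 were higher. Markers of pluripotent cells, in which ERK feedback genes are also expressed, had a summed signal of 10818 to 12194 in VEGFR2 positive and 37292 to 38533 in VEGFR2 negative cells, 1912 to 5946 in CD41 positive and 61333 to 61436 in CD41 negative cells, 38953 to 45043 in CD144 positive and 29581 to 30481 in CD144 negative cells of day 3.5, and 20841 to 23909 in CD144 positive and 32361 to 32622 in CD144 negative cells of day 6.5. Their part in the ERK feedback counts was not tested.

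Of 7 upstream factors measured (10 listed), 3 were higher and 2 lower: the ternary complex factor Elk3 was higher by 2.30 (limma adjusted p = 1.25e-10), Elk1 by 0.76 and Crem, of the CREB/ATF family, by 0.56, while its relatives Atf2 and Creb1 were lower by 1.03 and 0.32. Of 13 heat shock genes (14 listed), 4 were higher and 6 lower, but 1 was higher and 8 lower after quantile normalization. The inducible chaperone gene Hspa1b was lower by 2.57 (mean signal 302 in positive and 2115 in negative arrays, adjusted p = 2.32e-11) and its near copy Hspa1a by 2.41, which the probes may not tell apart. The mitochondrial chaperonin gene Hspe1 was higher by 0.95, and by 0.51 after quantile normalization. The directions of constitutive Hspa8 and of Hspd1, the partner of Hspe1, depended on the scaling. Hspa8 was at 0.60 with the deposited scaling (limma adjusted p = 0.000201) and at -0.35 after quantile normalization (adjusted p = 0.0004995), and Hspd1 was at 0.31 (adjusted p = 0.00109) and -0.11 (adjusted p = 0.169).

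Of 12 genes of the integrated stress and unfolded protein responses, 4 were higher and 1 lower, with Atf5 higher by 1.12, Atf4, the central factor of that response, by 0.95 (mean signal 8018 in positive and 3960 in negative arrays, limma adjusted p = 2.05e-08) and Chac1 by 0.65, and the chaperone gene Dnajb9 lower by 0.69. Of 10 oxidative stress and metallothionein genes, 1 was higher (Hmox1, haem oxygenase, by 0.90) and 6 lower, led by the metallothionein genes Mt2 and Mt1 at -1.23 and -1.16 and the glutathione synthesis gene Gclm at -0.89. Of 9 p53 targets measured (10 listed), 2 were higher, Bbc3 by 0.37 and Phlda3 by 0.24, and 4 lower, led by Trp53inp1 at -0.95. After quantile normalization 3 of the p53 targets were higher and 3 lower. The list counts over the 4 sorts together stand beside 23.5% of probe sets called higher and 23.6% called lower in that comparison.

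**Figure D4:**
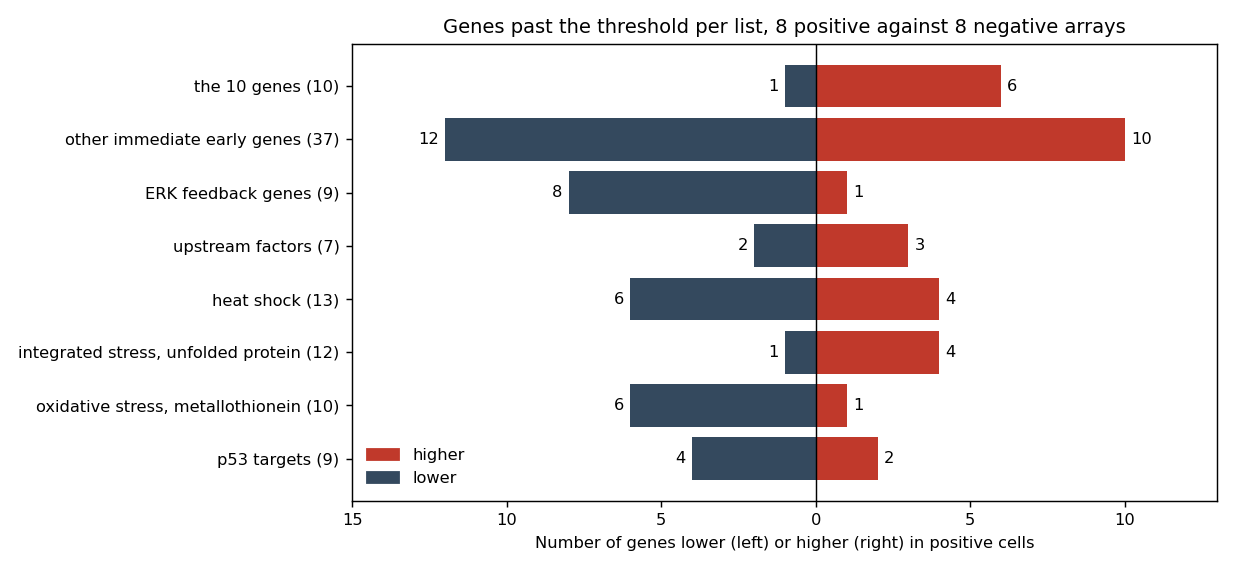
Number of genes called lower (bars to the left) or higher (bars to the right) in the 4 positive against the 4 negative populations, for the 10 genes and 7 wider lists (rows, with the number of genes measured in brackets). The 10 genes have 6 higher and 1 lower, and the ERK feedback genes 1 higher and 8 lower.

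Within the positive arrays several of the 10 genes varied together. Over the 8 positive arrays Pearson's r was 0.97 between Ier3 and Zfp36, 0.96 between Fos and Dusp1, 0.92 between Fos and Egr1 and 0.91 between Fos and Jun. Over the 8 negative arrays the same pairs had r = 0.63, -0.78, 0.85 and 0.72. Fos and Dusp1 thus went together across positive arrays and opposite ways across negative arrays. These are descriptions over 8 arrays of 4 populations, which share differentiation day, sort and array.

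The genes whose pattern over all 16 arrays was most like that of each of the 10 were not from the same list, which is short beside the probe sets searched. Nearest to Fos were Efna1 (r = 0.95) and Flt1 (0.94), nearest to Fosb was Acvrl1 (0.96), and nearest to Jun were Cd151 and Ets1 (both 0.96). Junb was nearest to Bicd2 (0.95), Egr1 to Rgma (0.94), Atf3 to Pea15a (0.97), Ier3 to Zfand5 (0.95), Dusp1 to Lrp11 (0.93) and Zfp36 to Tctex1d2 (0.94). For Fos and Efna1 r was 0.92 within the 8 positive arrays and 0.96 within the 8 negative arrays, and for Fosb and Acvrl1 0.85 and 0.87, whereas for Zfp36 and Tctex1d2 it was 0.93 and 0.51. Neighbours were chosen for the highest r over these same 16 arrays, so the values within positive and negative arrays are descriptions and no separate support. No neighbour is given for Ier2, which was called in no comparison.

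CD144 positive cells of day 6.5 had the highest mean signal in 8 of the 10 genes, the exceptions being Atf3, highest in VEGFR2 positive cells, and Dusp1, highest in VEGFR2 negative cells. For Ier2 that lead (3047, against 2906 in VEGFR2 negative cells) was within the range of the arrays. The share of all probe sets with their highest mean in that CD144 positive population was not counted, so the count of 8 is a description only. For Fos, the means ran from 11018 in CD144 positive cells of day 6.5 through 7853 in CD144 positive cells of day 3.5 and 3762 in VEGFR2 positive cells down to 748 in CD41 negative and 682 in VEGFR2 negative cells. VEGFR2 positive cells did not stand clear of the next populations in that order, CD144 negative cells of day 3.5 (2460) and CD41 positive cells (2248), beyond the range of their 2 arrays. For Atf3 the lead of VEGFR2 positive cells (1106) over CD144 positive cells of day 6.5 (947) was likewise within that range.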

How the data were processed

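Gene expression was measured on Affymetrix mouse whole-genome arrays, 2 for each of 8 sorted populations. The deposited values are MAS5 signal intensities, which the authors had scaled so that the mean after trimming 2% at each end was 500 on every array, as found from the values themselves. MAS5 is named in the submitters' processing notes without a version. An array's scan gives no count of molecules, so the number of arrays limits the precision. Such scaling assumes a like total signal in all populations, and MAS5 values of dim probe sets are noisy.

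After 64 control probe sets were left out, 45037 probe sets were analysed as log2(signal + 6) in limma 3.58.1 (R 4.3.3), with lmFit on the 8 population means over all 16 arrays and eBayes with a variance trend. P-values were adjusted by the Benjamini-Hochberg method within each of 14 pairwise comparisons, the comparison of the 4 positive with the 4 negative populations, and 3 differences between sorts, with a threshold of 0.05. The p-values rest on a spread pooled over all populations, and the study's methods describe the 2 arrays of each as separate experiments. The script was tested on simulated data. Symbols came from the platform annotation, which gave 1 symbol to 34945 probe sets, several to 932 and none to 9160. A gene was represented by its brightest probe set.

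All 10 genes are named. From the wider lists, up to 3 called genes per direction with the largest change in the comparison described are named. These lists and the 10 genes were chosen with earlier results of these data known. Nearest patterns are, per gene with at least 1 call, the highest Pearson correlations among the 3 leading brighter probe sets of other genes. Alternatives covered scaling, offset, floor, filter, samples in the fit, array weights, replicate block, prior, call rule, choice of probe set and leaving out each array. Promoters are from RefSeq on GRCm38.p6. Figures were drawn with matplotlib 3.10.9 in Python 3.11.15. Embryo arrays of the same study were not used here.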

Additional observations from a re-analysis of the deposited data

Results flagged for a closer look

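The difference between positive and negative cells was itself different between sorts in 4 cases among the 10 genes, each tested in limma as the positive minus negative difference of a later sort less that of the VEGFR2 sort of day 2.5. For Dusp1 it was 1.61 (SE 0.28, adjusted p = 0.00183) for the CD144 sort of day 3.5 and 1.72 (SE 0.28, adjusted p = 0.00139) for that of day 6.5, where 5.3% and 4.84% of all probe sets passed. For Zfp36 it was 1.88 (SE 0.38, adjusted p = 0.00799) for the CD144 sort of day 6.5. For Egr1 it was -1.82 (SE 0.49, adjusted p = 0.0425) for the CD41 sort of day 3.5, where 4.73% of all probe sets passed. The Dusp1 and Zfp36 differences passed with any 1 array of their populations left out, at 1.35 to 1.86 and 1.46 to 1.98 for Dusp1 and 1.28 to 2.48 for Zfp36. The 4 values share the VEGFR2 positive and VEGFR2 negative arrays. Groups of 2 arrays were too small to be examined for single arrays that stand apart.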

How the results depend on the processing

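Of 64 gene results called in the comparisons, 1017 values under alternatives had 798 on the same side of the threshold, 219 no longer past it and 0 reversed in direction; the cause of the lost calls was not tested. A robust prior without a trend gave counts of called genes of 2 in place of 5 in the VEGFR2 sort, 3 in place of 6 in the CD144 sort of day 3.5, 1 in place of 2 for CD41 positive and 0 in place of 2 for CD144 positive cells of day 3.5 against VEGFR2 positive cells, 4 in place of 7 for CD144 positive cells of day 6.5 against VEGFR2 positive cells, 0 in place of 4 between the CD144 positive days, 1 in place of 5 for CD144 against CD41 positive cells, 1 in place of 4 and 0 in place of 2 for CD144 negative cells of day 3.5 and 6.5 against VEGFR2 negative cells, 0 in place of 1 for CD41 negative against VEGFR2 negative and for CD144 negative against CD41 negative cells, and 0, 0 and 1 in place of 1, 1 and 2 for the differences of the CD41 sort and the CD144 sorts of day 3.5 and 6.5 from the VEGFR2 sort. Requiring the 90% interval of the fold to lie beyond 2 gave 2 in the VEGFR2 and CD41 sorts, 1 in the CD144 sort of day 3.5 and 4 over all sorts, 1, 0 and 3 for CD41 positive and CD144 positive cells of day 3.5 and 6.5 against VEGFR2 positive cells, 0 between the CD144 positive days, 1 for CD144 against CD41 positive cells, and 0 for the 3 comparisons with VEGFR2 negative cells and the CD41 sort difference. A floor of 16 in place of the offset gave 1 for CD41 positive and for CD144 positive cells of day 3.5 against VEGFR2 positive cells, 2 between the CD144 positive days and for CD144 against CD41 positive cells, 0, 1 and 1 for CD41 negative and CD144 negative cells of day 3.5 and 6.5 against VEGFR2 negative cells, and 0 for the CD41 sort difference. Array weights (0.627 for positive, 1.59 for negative arrays) gave 1 for CD41 positive and for CD144 positive cells of day 3.5 against VEGFR2 positive cells and between the CD144 positive days, 3 and 4 for CD41 negative and CD144 negative cells of day 6.5 against VEGFR2 negative cells, and 2 for CD144 negative against CD41 negative cells. With the 8 arrays of the same side only, these 6 counts were 1, 0, 1, 2, 4 and 2. With the compared populations only, they were 1 for CD41 positive against VEGFR2 positive, 3 for CD144 positive against CD41 positive, 6 and 4 for CD41 negative and CD144 negative cells of day 6.5 against VEGFR2 negative, 3 for CD144 negative against CD41 negative cells and 0 for the CD41 sort difference. For CD41 negative against VEGFR2 negative cells, quantile normalization, the removal of dim probe sets, the probe set of largest variance and the use of any probe set each gave 2 in place of 1, and the probe set of largest variance gave 1 in place of 2 for CD144 positive cells of day 3.5 against VEGFR2 positive cells.

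Replicate numbers showed no common pairing. Over 28 pairs of populations, the deviations of same-numbered arrays correlated at -0.17 to 0.16 (median 0.0087). The highest, 0.157, was between positive and negative cells of the CD144 sort of day 6.5. The same value was -0.024 in the VEGFR2 sort, -0.027 in the CD41 sort and 0.011 in the CD144 sort of day 3.5. Such correlations cannot exclude that same-numbered arrays shared a differentiation. With a replicate block, 2 genes in place of 1 were called for CD41 negative against VEGFR2 negative cells and 2 in place of 1 for the CD41 sort difference, and the other counts stayed within 1.5 times.

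With each array left out in turn, counts ran from 3 to 7 in the VEGFR2 sort, 5 to 6 in the CD41 sort, 1 to 4 and 6 to 7 in the CD144 sorts of day 3.5 and 6.5, and 7 to 8 over all sorts. They ran from 1 to 4, 0 to 5 and 3 to 8 for CD41 positive and CD144 positive cells of day 3.5 and 6.5 against VEGFR2 positive cells, 0 to 2 between the CD144 positive days, and 1 to 6 for CD144 against CD41 positive cells. In negative cells they were 0, 1 and 0 to 1 for CD41 and CD144 of day 3.5 and 6.5 against VEGFR2 negative cells, 0 between the CD144 negative days and 0 to 1 for CD144 against CD41 negative cells. For the 3 differences between sorts they were 0 to 3, 1 to 2 and 2 to 3. Totals called in the 7 wider lists stayed within 1.5 times, for example 21 to 24 for the other immediate early genes, but quantile normalization turned the split of the heat shock list to 1 higher and 8 lower, against 4 and 6, with Hspa8 at -0.35, against 0.60, and that of the p53 targets to 3 and 3, against 2 and 4. The removal of dim probe sets moved the median of all probe sets over the 4 sorts to -0.10, against 0.12. Dim genes such as Fosb, at 16.8 to 58.5 in negative arrays, have the least certain folds.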
